A study of Mus musculus with 9 samples.

Results

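The genes described here encode TRIM and KLHL proteins, 2 large families of ubiquitin ligases and ligase adaptors, and were measured in cardiomyocyte nuclei of young mice. They were chosen by symbol (Trim or Klhl followed by a digit) and by level, 3 or more of the 9 libraries having to hold a normalized count of 10 or above. A normalized count is the number of reads of a gene divided by a scaling factor of its library. The symbol rule took 104 rows of the 41128 genes in the table, 67 Trim and 37 Klhl, and 68 of them passed the level minimum, 38 Trim and 30 Klhl. Among all genes measured, 13454 passed.

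All mice were of the FVB strain and 12 days old. Groups of 3 mice each were compared. The control mice (C1, C2 and C3) are labelled wildtype, and the study's methods give their genotype as Fstl1 WT/fl, that is with 1 floxed allele of Fstl1 and without Cre. The unstressed cKO mice (U1, U2 and U3) and the stressed cKO mice (S1, S2 and S3, stress score 1) were all Fstl1KO/fl;Tie2-Cre. They carried 1 knockout allele of Fstl1 in all cells and lost the floxed allele where Tie2-Cre was active, in the endothelial and endocardial lineage, so cardiomyocytes were not the cells aimed at by the deletion. The mitral valve of cKO mice is malformed and leaks, and the left ventricle is then overloaded with blood. The stress score was assigned from the ratio of heart weight to body weight. The title of U3 reads het_cKO, although its genotype label is that of the other cKO mice. Nuclei of the left ventricle were stained for PCM-1, a protein of the nuclear membrane of cardiomyocytes, and sorted, and their RNA was sequenced.

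Ubiquitin ligases attach ubiquitin to chosen proteins and so mark them for degradation or change their function. A typical TRIM protein is a ligase in 1 chain, with a RING domain that recruits the ubiquitin-carrying enzyme, a B-box, a coiled coil and a variable end that binds the target. A KLHL protein is an adaptor, whose BTB domain holds on to cullin 3 and whose kelch repeats hold the target, so that the ligase is assembled from several parts. Striated muscle has members of its own in both families, among them the MuRF proteins Trim63, Trim55 and Trim54, which sit on the sarcomere and take part in the turnover of its proteins.

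The promoters of 3 members are shown, as Trim63 was the steadiest member across the mice and Trim13 and Klhl12 were the members with the lowest p-values among those lower in cKO than in control mice. Each window runs from 250 bases before to 50 bases after the RefSeq transcript start in GRCm38.p6 and is written 5′ to 3′ on the strand of the gene. Capitals mark the letters TATAAA, the TATA box core, and TGTTTAC, a core bound by forkhead factors, on either strand.
Trim63, chr4:134314870-134315169, plus strand: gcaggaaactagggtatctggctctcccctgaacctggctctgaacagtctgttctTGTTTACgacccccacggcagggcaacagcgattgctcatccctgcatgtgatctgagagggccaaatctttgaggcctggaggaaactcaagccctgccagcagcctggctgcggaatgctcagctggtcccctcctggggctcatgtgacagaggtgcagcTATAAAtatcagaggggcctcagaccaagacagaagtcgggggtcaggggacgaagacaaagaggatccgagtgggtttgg
Trim13, chr14:61597976-61598275, plus strand, the more upstream start: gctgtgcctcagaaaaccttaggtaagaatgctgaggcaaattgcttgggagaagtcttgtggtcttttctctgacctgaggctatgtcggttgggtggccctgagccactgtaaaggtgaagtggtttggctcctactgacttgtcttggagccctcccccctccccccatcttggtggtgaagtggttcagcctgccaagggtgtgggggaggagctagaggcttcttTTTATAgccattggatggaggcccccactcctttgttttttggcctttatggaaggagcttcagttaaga
Klhl12, chr1:134455281-134455580, plus strand: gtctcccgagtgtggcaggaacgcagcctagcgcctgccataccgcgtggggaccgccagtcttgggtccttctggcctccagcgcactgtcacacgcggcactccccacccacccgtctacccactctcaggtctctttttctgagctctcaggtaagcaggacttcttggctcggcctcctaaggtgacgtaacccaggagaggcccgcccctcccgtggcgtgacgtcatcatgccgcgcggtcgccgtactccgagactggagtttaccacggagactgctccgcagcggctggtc
In Trim63 the letters TATAAA began at position -31 and TGTTTAC at position -194 from the start. In the Trim13 window TATAAA lay on the opposite strand, and in the Klhl12 window neither motif was found. Promoters of 52 of the 68 members were matched by symbol, with 73 windows. The GC box core GGGCGG, searched on both strands, was in 43 of 64 windows (67.2%) of members outside the muscle lists and in 1 of 9 windows (11.1%) of the muscle members. Over all 32851 windows of the same length its share was 35.7%. TATAAA was in 9.59% of the members' windows and in 13.6% of all windows, and TGTTTAC in 2.74% and 3.65%. These matches describe letters only.

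The libraries held 8262684 to 12698502 recovered reads, and 1 read was worth 0.85 to 1.18 normalized counts. Mitochondrial ribosomal RNA took 3.84% of reads in U3 and 3.81% in S2, against at most 1.15% in the other 7. The summed level of 10 cardiomyocyte markers was between 2320000 and 3848000 normalized counts and overlapped between the groups. That of 10 endothelial markers was at most 1744. Marker lists of other cell types summed higher: 9 fibroblast markers spanned 2068 (S3) to 3478 (S2), and 7 smooth muscle and pericyte markers 2487 (S1) to 7622 (U3). For the last list S1 and S2 (3885) lay below every other mouse, whereas S3 was at 6157. This sum leans heavily on Acta2, whose mean log2(normalized count + 1) over the 9 libraries was 11.75. Between stressed cKO and control mice Acta2 alone of the 7 was at an unadjusted p under 0.05 by limma (lower). In that comparison 3 of the 7 had a log2 difference above 0. The part of other cell types in the levels of the members was not tested. Fstl1, of which cKO mice carry 1 knockout allele in all cells, had a log2 difference of 0.01 between all cKO and control mice (standard error, SE, 0.34, limma adjusted p = 0.999). The reason for this level was not tested. The labels do not give litters, and with 3 mice in each group an exact permutation test cannot go below p = 0.1.

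Of the 5 members with the highest levels in the ventricle, 4 were genes of striated muscle. Set per kb of exon, to make genes of different length comparable, the median of the control mice was 1194 normalized counts per kb for Trim55, 855.4 for Trim63, 340.8 for Trim72, 288.7 for Trim7 and 277.6 for Klhl31. Trim72 encodes MG53, which takes part in the repair of the cell membrane, Trim7 binds glycogenin, the primer of glycogen synthesis, and Klhl31 is a kelch gene of skeletal and cardiac muscle. Trim44 (196 per kb), Trim28 (159.1), Klhl11 (145.7), Trim8 (143.2) and Trim11 (128.1) followed. Trim28 is the corepressor recruited by KRAB zinc finger proteins. The control mice did not separate many neighbours in this order. Trim55 lay above Trim63 in all 3 control mice, but Trim72 reached down to 174.1 per kb in 1 of them, and its range took in those of Trim7 and Klhl31.

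The 67 members with a position in the annotation were spread over 18 autosomes and the X chromosome, with 10 on chromosome 11 and 8 on chromosome 7. On chromosome 7 of mm10 between 104218793 and 104535361 lies the mouse cluster of Trim5, Trim6, Trim12, Trim30 and Trim34 genes, several of which are known for antiviral roles. Of 10 rows of the rule in this interval only Trim12c passed the level minimum, and none of the other 9 exceeded a normalized count of 14.2 in any library. In all, 36 rows were under the minimum. Of these, 7 were listed at 0 in all libraries and 29 were detected in at least 1. The highest single value among them was 50.43, of Klhl32 in S2, followed by 36.53 for Klhl34 in S3.

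Trim63, which encodes MuRF1, a ligase of thick filament proteins that is induced in wasting muscle, was at nearly the same level in every mouse. Its normalized count was 2164, 2587 and 2431 in control mice, 2411, 2127 and 2498 in unstressed cKO mice and 2530, 2145 and 2447 in stressed cKO mice. The 3 groups overlapped, and the highest of the 9 values was 1.22 times the lowest. The log2 difference between stressed cKO mice and control mice was -0.01 (95% interval -0.41 to 0.38, limma adjusted p = 0.997). For all cKO mice against control mice it was -0.02 (95% interval -0.36 to 0.31, limma adjusted p = 0.997). Its SD within groups was 0.13 on the log2 scale, the smallest among the members and at percentile 0.639 of all tested genes. Klhl31 and Trim33 came next with 0.16 each, and Trim46 had the largest SD, 1.82. The median over the members was 0.62, beside 0.61 over all tested genes.

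**Figure D1:**
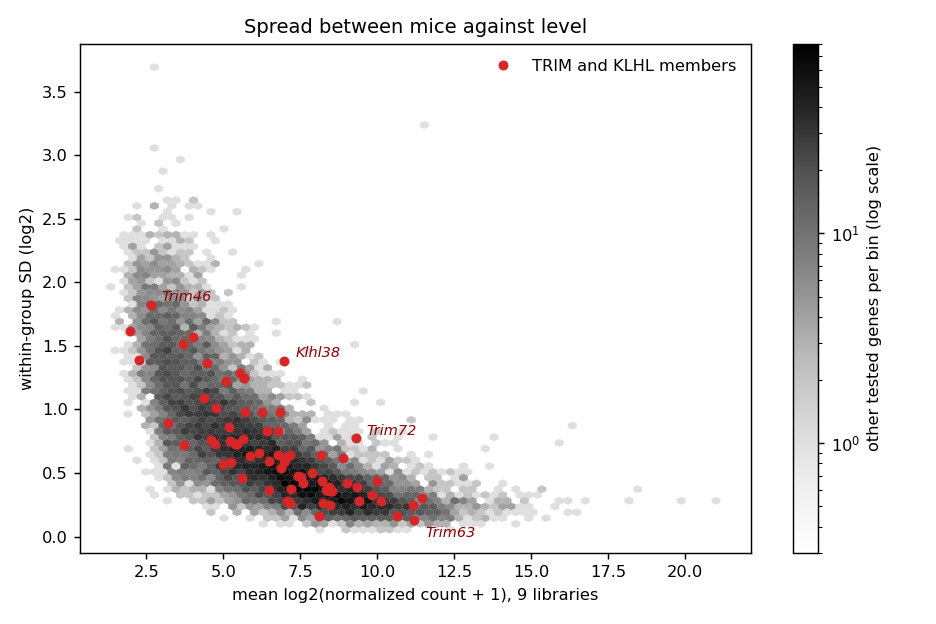
Standard deviation within groups on the log2 scale (vertical axis) against the mean of log2(normalized count + 1) over the 9 libraries (horizontal axis). Red points are the 68 members and grey bins the other tested genes, darker where they are more numerous. Trim63 lies at the lower edge, with an SD of 0.13, Trim72 (0.77) above most genes of its level, and Trim46 (1.82) is the highest member.

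Trim55, which encodes MuRF2, had 2680, 3713 and 3176 normalized counts in control mice, 2616, 2425 and 2719 in unstressed cKO mice and 1992, 2426 and 3733 in stressed cKO mice. The lowest and the highest of the 9 values were both from stressed cKO mice. C2, C3 and S3, whose title numbers share their leading digits (series B below), lay above all other mice. C1, at 2680, lay within the range of the cKO mice of its own series, 1992 to 2719. Trim54, the MuRF3 gene, had 153.6, 127.4 and 71.28 normalized counts in control mice, 111.9, 143.7 and 118.9 in unstressed cKO mice and 216.5, 168.4 and 73.06 in stressed cKO mice. Here too S3 stood apart from S1 and S2, on the other side. For all cKO mice against control mice the log2 difference was -0.28 for Trim55 (SE 0.19, limma adjusted p = 0.948) and 0.23 for Trim54 (SE 0.38, limma adjusted p = 0.983).

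Trim72 varied most among the 10 members with the highest level per kb, with an SD within groups of 0.77 on the log2 scale. Its normalized count was 761, 1729 and 388.7 in control mice, 501, 688 and 606 in unstressed cKO mice and 955.4, 356.4 and 415.9 in stressed cKO mice. C2 was the highest and S2 the lowest, and both the control and the stressed cKO mice had values on either side of the unstressed ones. Trim32, whose human counterpart is mutated in a limb girdle muscular dystrophy, ranged from 15.25 in C2 to 154.1 in U1, and its groups overlapped. Of the 50-base windows of Trim72 transcripts 23.8% also occur in Gm15533, and of those of Trim54 18.4% in Gm15469, so single-end 50-base reads there could be counted to either gene or to none.

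Of the 6 muscle kelch genes tested, only Klhl40 was above 0 in the log2 difference of all cKO from control mice. The median over the 6 was -0.25, beside -0.01 over all tested genes, and Klhl41 alone passed an unadjusted p of 0.05. Klhl41, which is mutated in human nemaline myopathy, had 241, 243.1 and 204.3 normalized counts in control mice, 59.35, 82.49 and 151.7 in unstressed cKO mice and 105.6, 95.73 and 282.9 in stressed cKO mice. Every unstressed cKO mouse lay below every control mouse, as did S1 and S2, while S3 lay above all of them. The log2 difference between unstressed cKO and control mice was -1.33 (SE 0.44, unadjusted p = 0.00772, limma adjusted p = 0.9995). Klhl40, also a nemaline myopathy gene, whose product stabilises nebulin and leiomodin 3, had 38.99, 17.94 and 37.06 normalized counts in control mice, 22.83, 23.81 and 90.5 in unstressed cKO mice and 67.66, 64.1 and 73.99 in stressed cKO mice. All stressed cKO mice lay above the control mice, but U3 was the highest of all. The log2 difference between stressed cKO and control mice was 1.18 (SE 0.62, limma adjusted p = 0.694). U3 was, with S2, a library with a high share of mitochondrial ribosomal RNA (3.84%), and the part of this in the level of Klhl40 was not tested. Of the windows of Klhl40 20.02% also occur in Gm47108.

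Klhl31 had 1999, 1611 and 1803 normalized counts in control mice, 1594, 1790 and 1573 in unstressed cKO mice and 1254, 1279 and 1629 in stressed cKO mice. S1 and S2 were the lowest, and S3 lay among the other mice. The log2 difference from control mice was -0.38 (SE 0.20, limma adjusted p = 0.694). Klhl30 ranged from 106.5 to 530.6, Klhl33 from 22.55 to 178 and Klhl38 from 34.28 to 303.5, each with overlapping groups. Klhl38 shares 62.6% of its windows with the antisense gene Gm15943, and since it is not given whether strand was used in counting, the level of Klhl38 is uncertain. Among the 11 muscle members together, 0 passed the adjusted threshold of 0.05 in any of the 5 comparisons by limma, edgeR or DESeq2.

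**Figure D2:**
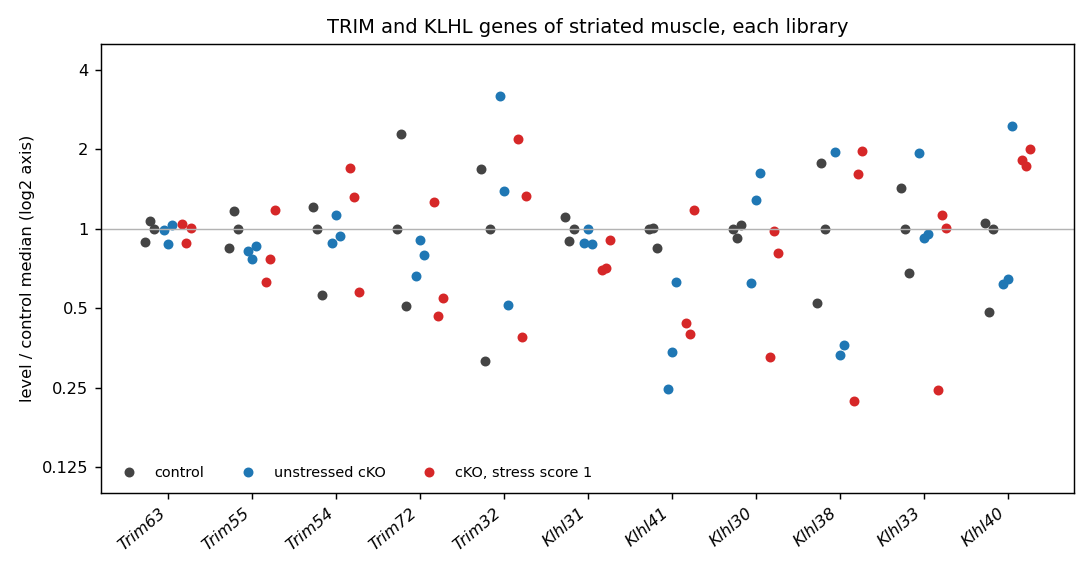
Normalized count of each of 11 TRIM and KLHL genes of striated muscle in each of the 9 libraries, divided by the median of the 3 control mice (vertical axis, log2 scale). Points are mice, coloured by group. Trim63 stays close to 1 in all 9 mice, whereas for Klhl41 the unstressed cKO mice (59.35 to 151.7 normalized counts) lie below the control mice (204.3 to 243.1).

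There were 5 comparisons. The first was of unstressed cKO with control mice. Stressed cKO mice were compared with control mice, with unstressed cKO mice and with the other 6 mice. The last comparison was of all 6 cKO mice with control mice. The comparisons with control mice share the same 3 controls and are not independent of each other. The main test was limma on log2(normalized count + 1) with p-values adjusted over all 13454 tested genes, and 0 members passed in any comparison. Of all tested genes 0% passed in 4 comparisons and 0.00743%, which is 1 gene, in that of stressed cKO mice with the other 6. At an unadjusted p under 0.05, 8 members (11.8%) differed between unstressed cKO and control mice, where the background over all tested genes was 4.17%. Trim8, Trim7, Trim67, Klhl18 and Klhl29 were higher and Trim13, Klhl12 and Klhl41 lower, and the count was 5 without U1 or without U3. Between stressed cKO mice and control mice there were also 8 (11.8%), at a background of 7.67%. Here Trim8, Klhl18, Klhl29 and Klhl6 were higher and Trim13, Klhl12, Trim21 and Trim36 lower, and the count fell to 2 without C1, 4 without C3 and 4 without S1. Klhl29 is in both counts and Trim36 in the second, although each passed the level minimum through the group where it is high. Against unstressed cKO mice there were 2 (background 6.34%), and against the other 6 mice 3 (background 8.09%), which rose to 9 and 10 without S3. The former was 1 without C1 or C3 and 5 without S2, and the latter 1 without C3 and 5 without S1 or S2. All cKO mice differed from control mice in 7 members (10.3%, background 5.25%). Trim8, Klhl18 and Klhl29 were higher and Trim13, Klhl12, Klhl41 and Trim36 lower. As Klhl29 and Trim36 are again among them, nothing is read from the shares in the comparisons with control mice. edgeR's quasi-likelihood test on the recovered reads gave 0 members in every comparison at the adjusted threshold, and likewise 0% of all genes in 4 comparisons and 0.00743% in the other. DESeq2 ran without the level minimum, and its backgrounds are over 14731 to 15833 genes with an adjusted p. In comparisons of 3 with 3 mice it used only the groups compared. In the first comparison it called 9 genes (0.0581%), of which 4 were the Y-linked genes Kdm5d, Uty, Ddx3y and Eif2s3y. Klhl12 and Trim13 were the 2 members among them (2.94% of the members). For all cKO mice it called 1 member, Trim13 (1.47%, background 0.221%). It gave 0 for stressed cKO mice against control mice (background 0.236%), against unstressed cKO mice (0.19%) and against the other 6 mice (0.371%).

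Over the members the median log2 difference was close to 0 in each comparison. It was -0.02 for unstressed cKO against control mice (0.01 over all tested genes), 0.02 for stressed cKO mice against control mice (-0.01) and -0.03 for all cKO mice against control mice (-0.01). Of the 68 members 32 were above 0 and 36 below in the last of these. The members thus lay on both sides of 0 in about equal numbers.

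Trim13 was lower in every cKO mouse than in any control mouse. It encodes a ligase anchored in the membrane of the endoplasmic reticulum, where it takes part in the degradation of misfolded proteins, and lies on chromosome 14 of mm10 from 61598247 to 61605946 (ENSMUSG00000035235.7). Its normalized count was 126.4, 66.39 and 142.6 in control mice, 35.38, 22.96 and 16.86 in unstressed cKO mice and 37.89, 47.01 and 44.96 in stressed cKO mice. The stressed cKO mice lay between the other groups and overlapped neither. The log2 difference of all cKO from control mice was -1.69 (SE 0.49, 95% interval -2.71 to -0.68, limma adjusted p = 0.715, DESeq2 adjusted p = 0.0379). The exact two-sided permutation test of this single gene gave p = 0.0119, the smallest that 3 against 6 mice allow. For unstressed cKO against control mice the log2 difference was -2.10 (SE 0.54, unadjusted p = 0.00102, limma adjusted p = 0.9995). For stressed cKO against control mice it was -1.28 (SE 0.54, limma adjusted p = 0.617), and the difference between both cKO groups was 0.82 (SE 0.54, limma adjusted p = 0.858). DESeq2's call for all cKO mice was kept in 1 of 9 fits that left out 1 library, that without S3 (adjusted p from 0.0443 to 0.493), and that for unstressed cKO mice in 2 of 6, those without C2 and without U1 (0.0151 to 0.417).

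The numbers in the sample titles fall, by their leading digits, into series A (C1, U1, U2, U3, S1 and S2) and series B (C2, C3 and S3). The titles do not say what these numbers stand for. Within series A, Trim13 was at 126.4 in the control mouse and at 16.86 to 47.01 in the 5 cKO mice, and within series B at 66.39 and 142.6 in the control mice and at 44.96 in the cKO mouse. With series as a covariate the log2 difference of all cKO from control mice was -1.62. Dleu2, an antisense gene over the same locus that shares no exon bases with Trim13 and was chosen after its values were seen, had a log2 difference of -0.46 (SE 0.35, limma adjusted p = 0.948). Of the windows of Trim13 14.2% also occur in Gm9359, which was listed at 0 in all libraries.

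Klhl12 was lower in unstressed cKO mice and unevenly so in stressed ones. It encodes the cullin 3 adaptor for Sec31, through which the size of COPII vesicles is set, and lies on chromosome 1 of mm10 from 134455531 to 134491018 (ENSMUSG00000026455.9). Its normalized count was 271.8, 161.5 and 265.1 in control mice, 74.19, 90.14 and 75.42 in unstressed cKO mice and 163.3, 165.8 and 49.64 in stressed cKO mice. S1 and S2 were at the level of C2, and S3 was the lowest of all. For unstressed cKO against control mice the log2 difference was -1.50 (SE 0.45, 95% interval -2.45 to -0.55, limma adjusted p = 0.9995, DESeq2 adjusted p = 0.0313). DESeq2's call was kept in 1 of 6 fits without 1 library, that without C2 (adjusted p from 0.0072 to 0.313). For all cKO mice the difference was -1.26 (SE 0.40, limma adjusted p = 0.77, exact permutation p = 0.0714). Klhl12 was at 271.8 in the control mouse of series A and at 74.19 to 165.8 in its cKO mice, and in series B at 161.5 and 265.1 in the control mice and at 49.64 in S3.

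The unstressed cKO mice were male and the control mice female, according to the study, and in this comparison sex and genotype cannot be told apart. The summed normalized count of 4 Y-linked genes spanned 1.79 to 9.45 for control mice and 2040 to 2244 for unstressed cKO mice, and was 13.5 in S1, 5.13 in S2 and 2118 in S3. By these counts the other comparisons are partly mixed with sex as well, and its part in their differences was not tested. Klhl12 was at 49.64 to 90.14 in the 4 mice with high Y-linked counts and at 161.5 to 271.8 in the other 5. Trim13 did not divide the mice in that way, since S1 and S2, with low Y-linked counts, were at 37.89 and 47.01 and so below all control mice. This reading of both genes was made after their values were seen and is given without a test.

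Pef1, whose product works with Klhl12 as a co-adaptor, and the Klhl40 and Klhl41 partner genes Lmod3 and Nrap were lower in unstressed cKO than in control mice at an unadjusted p under 0.05 by limma, and were chosen for mention after their values were seen. Their log2 differences were -2.32 for Pef1 (SE 0.98), -0.74 for Lmod3 (SE 0.34) and -0.72 for Nrap (SE 0.25), each with an adjusted p of 0.9995 from limma. For Nrap the groups did not overlap, and edgeR (unadjusted p = 0.00757) and DESeq2 (unadjusted p = 0.00197) gave p-values under 0.05 as well. Over the alternatives its log2 difference ranged from -0.98 to -0.36, and its DESeq2 adjusted p was 0.292. Nrap was at 5504 in C1 of series A and at 8844 and 10070 in C2 and C3 of series B. The unstressed cKO mice, all of series A, were at 4426 to 5079. S1 and S2 of series A were at 9253 and 4874, and S3 of series B was at 8232. For Pef1 the groups overlapped, with 0.85 normalized counts in U2, which is 1 read, and the unadjusted p was 0.138 by edgeR and 0.109 by DESeq2. Those of Lmod3 overlapped too, with 0.0716 and 0.0705. Of 13 measured partners of KLHL and TRIM proteins these 3 passed an unadjusted p of 0.05 by limma, where the background was 4.17%, and 5 of the 13 had a log2 difference above 0. Neb, the nebulin gene, was among those above 0, with 0.35 (SE 0.42, limma adjusted p = 0.9995) and overlapping groups.

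Trim8 and Klhl18 were higher in every cKO mouse than in any control mouse. Trim8 encodes a ligase of cytokine and NF-kB signalling and lies on chromosome 19 of mm10 from 46501702 to 46516848 (ENSMUSG00000025034.8). It had 374.6, 544.6 and 531.2 normalized counts in control mice, 932.5, 596.1 and 851.8 in unstressed cKO mice and 980.6, 865.8 and 773.7 in stressed cKO mice. Only U2 came close to the control mice. The log2 difference of all cKO from control mice was 0.79 (SE 0.22, 95% interval 0.33 to 1.24, limma adjusted p = 0.689, DESeq2 adjusted p = 0.144, exact permutation p = 0.0119, the smallest possible). For stressed cKO against control mice it was 0.87 (SE 0.25, limma adjusted p = 0.474).

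Klhl18, on chromosome 9 of mm10 from 110425926 to 110476694 (ENSMUSG00000054792.10), encodes a cullin 3 adaptor that acts on Aurora A at entry into mitosis. It had 219.8, 199.2 and 212.9 normalized counts in control mice, 331, 420.1 and 427.7 in unstressed cKO mice and 416.8, 384.6 and 250.1 in stressed cKO mice. The control mice lay close together, and S3 was the cKO mouse nearest to them. The log2 difference of all cKO from control mice was 0.79 (SE 0.25, 95% interval 0.27 to 1.32, limma adjusted p = 0.77, DESeq2 adjusted p = 0.147, exact permutation p = 0.0119). For both genes the direction was the same within series A and within series B. In series A, Trim8 was at 374.6 in the control mouse and at 596.1 to 980.6 in the cKO mice, and Klhl18 at 219.8 and at 331 to 427.7. No 50-base window of either gene occurs in another gene. DESeq2 called Trim8 without U2 (adjusted p = 0.0418) and Klhl18 without S3 (adjusted p = 0.0247), and neither with all mice. The other 4 of the 5 kelch adaptors of mitosis, Klhl9, Klhl13, Klhl21 and Klhl22, were not past an unadjusted p of 0.05 for all cKO mice.

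**Figure D3:**
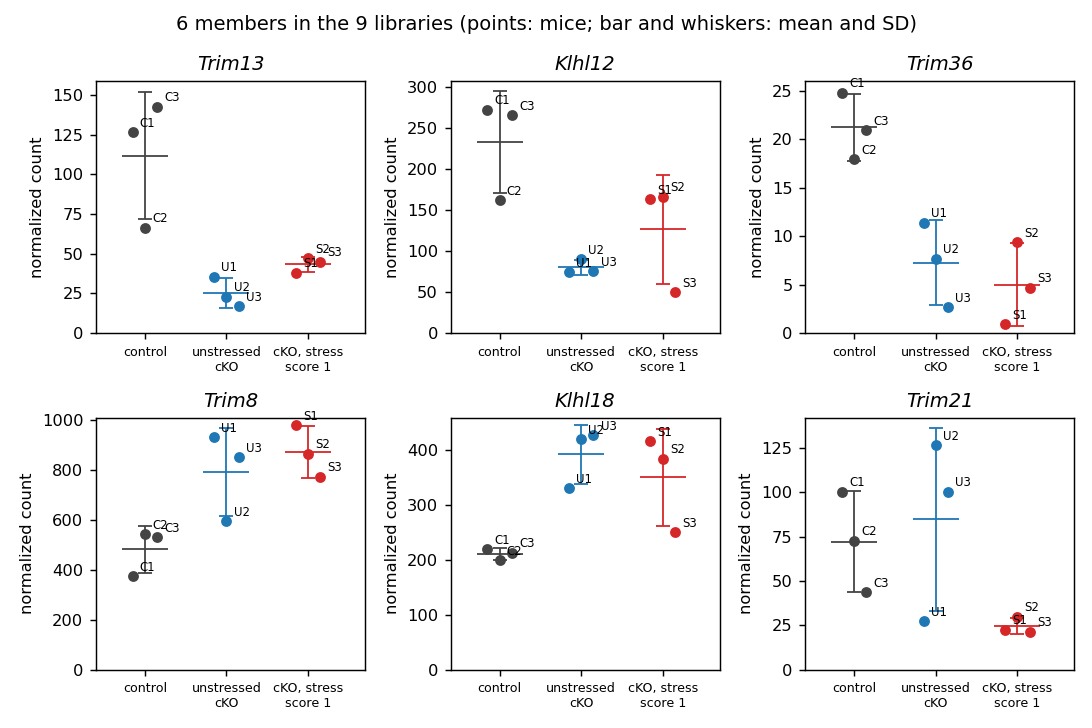
Normalized counts (vertical axes, from 0) of 6 members in control mice, unstressed cKO mice and stressed cKO mice. Points are mice with their names, horizontal bars group means and whiskers 1 SD (n = 3). The cKO mice lie below all control mice for Trim13 and Trim36 and above them for Trim8 and Klhl18, and S3 is the lowest mouse for Klhl12 (49.64).

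Trim36, a microtubule-associated ligase gene, was low throughout. It had 24.81, 17.94 and 20.91 normalized counts in control mice, 11.41, 7.654 and 2.662 in unstressed cKO mice and 0.902, 9.402 and 4.683 in stressed cKO mice, where a value of 0.902 stands for 1 read. It reached 10 only in the control mice and U1, and all cKO mice lay below all control mice. It passed the level minimum through the control mice, where it is high, so its difference is given by its levels alone. Trim33, a cofactor that acts on Smad4 in TGF-beta signalling, had 301.3, 323.9 and 325 normalized counts in control mice and 211.2 to 293.2 in the cKO mice. It too did not overlap, with a log2 difference of -0.31 (SE 0.24, limma adjusted p = 0.948), and it was chosen after its values were seen. With Trim13, Trim8 and Klhl18 these were the 5 of 68 members (7.35%) whose groups did not overlap, where the background over all tested genes was 2.51%. As Trim36 is among them, nothing is read from that count. In the comparisons of 3 with 3 mice there were 12 (17.6%, background 10.5%) between unstressed cKO and control mice, 8 (11.8%, background 11.1%) between stressed cKO and control mice and 5 (7.35%, background 11.3%) between both cKO groups. Against the other 6 mice it was 0 (background 3.47%). Trim36 is also in both counts against control mice, and Klhl29 in that of the unstressed cKO mice. Trim24, a relative of Trim33 and Trim28 also chosen after its values were seen, lay between 909.5 and 916.9 in control mice and spread from 656.4 in S2 to 1828 in S1 among the stressed cKO mice.

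**Figure D4:**
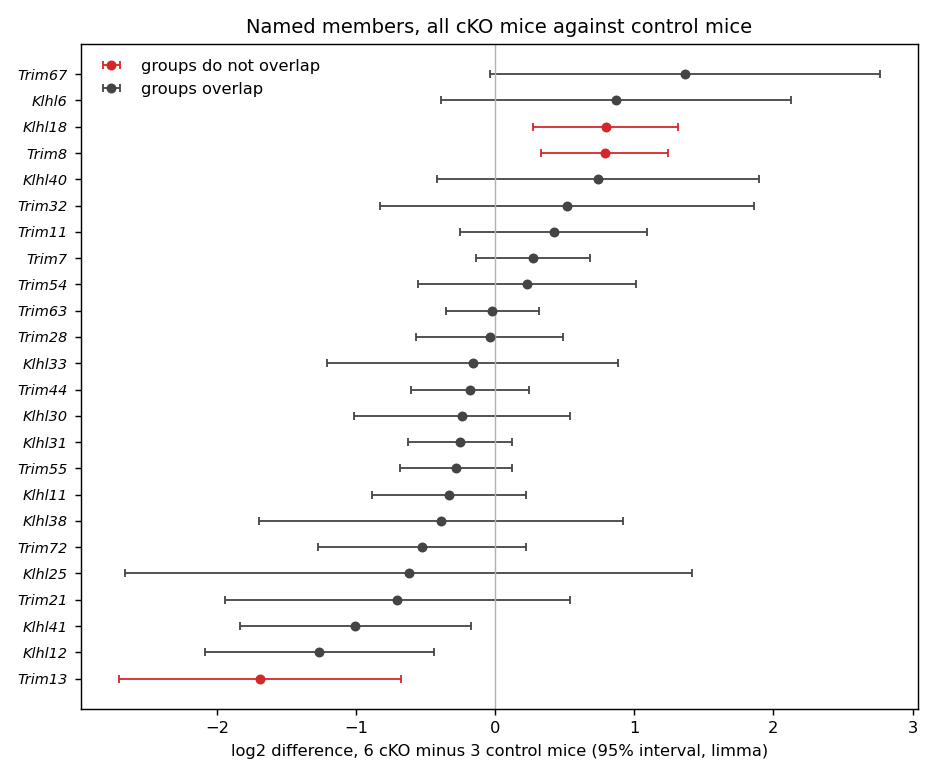
Log2 difference of the 6 cKO mice from the 3 control mice (horizontal axis) for 24 named members, with 95% intervals from limma. Red marks members whose groups do not overlap: Trim13 (-1.69), Trim8 (0.79) and Klhl18 (0.79). Trim36 and Klhl29 are left out, since each passed the level minimum through the group where it is high. The interval of Trim63 (-0.36 to 0.31) is the narrowest shown.

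Trim21 was low in all 3 stressed cKO mice. It encodes a cytosolic receptor for antibodies, which sends antibody-bound viruses to degradation. Its normalized count was 100.4, 72.67 and 43.72 in control mice, 27.39, 126.7 and 100.3 in unstressed cKO mice and 22.55, 29.92 and 21.54 in stressed cKO mice. U1, at 27.39, lay within the range of the last group. The log2 difference from the other 6 mice was -1.47 (SE 0.51, limma adjusted p = 0.466, DESeq2 adjusted p = 0.0877, exact permutation p = 0.0357). Without U1 DESeq2 gave an adjusted p of 0.0158. The summed level of 8 measured leukocyte markers (of 9 listed) was also lowest in stressed cKO mice, 116.4 to 120.5 against at least 132.1 in every other mouse (up to 261.1, in C1). This sum rests on few genes with low counts. Only 3 of the markers reached the level minimum, and 4 of the 8 were at 0 in S3. Cd68 alone was at an unadjusted p under 0.05 by limma against the other 6 mice. The part of leukocytes in the level of Trim21 was not tested. In bulk samples fewer cells of a type and less RNA per cell cannot be told apart.

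Klhl6, a gene of B lymphocytes, went the other way than those markers. It had 14.18, 78.05 and 35.16 normalized counts in control mice, 15.98, 62.93 and 76.31 in unstressed cKO mice and 97.43, 107.7 and 76.8 in stressed cKO mice. S1 and S2 were the highest of all, and S3 lay just under C2 and just above U3. The log2 difference from the other 6 mice was 1.26 (SE 0.56, limma adjusted p = 0.603). Summed endothelial markers reached from 996.9 to 1461 among control mice, from 1245 to 1648 among unstressed and from 1443 to 1744 among stressed cKO mice. Their part in the level of Klhl6 was not tested. Klhl25, an adaptor for the translation repressor 4E-BP1, was at 27.06, 0 and 9.366 in stressed cKO mice and at 9.869 to 49.69 in the other 6 mice (log2 difference on the scale with 1 added -1.95, SE 0.87, limma adjusted p = 0.603). Without S2, the mouse listed at 0, the difference was -0.58, and without S1 -2.99.

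Klhl29 was close to absent in control mice. It was listed at 0 in C1 and C2 and at 0.95, which is 1 read, in C3, and had 3.424, 13.61 and 14.2 normalized counts in unstressed cKO mice and 35.18, 8.547 and 0.937 in stressed cKO mice. It reached the minimum of 10 only in U2, U3 and S1, so it could only enter the tests by being higher in cKO mice, and its difference is given by its levels alone, although it counts among the members at an unadjusted p under 0.05 above. Trim67, known from neurons, had 57.9, 5.383 and 38.96 normalized counts in control mice, 97.01, 39.12 and 115.3 in unstressed cKO mice and 88.41, 76.07 and 19.67 in stressed cKO mice. Its groups overlapped. Trim7 had 2193, 2362 and 1538 normalized counts in control mice, 2966, 2756 and 2531 in unstressed cKO mice and 1744, 2218 and 2476 in stressed cKO mice. The unstressed cKO mice were above all others, with a log2 difference from control mice of 0.46 (SE 0.21, limma adjusted p = 0.9995). The stressed cKO mice were lower than the unstressed ones, with a log2 difference of -0.37 (SE 0.21, limma adjusted p = 0.832).

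Of the other genes of the pathway, 115 were listed (cullins, neddylation, other kelch adaptors, E1 and E2 enzymes, other muscle ligases, regulators and partners) and 109 tested. By limma 0 passed the adjusted threshold in any comparison. At an unadjusted p under 0.05, 1 was higher and 5 lower in unstressed cKO than in control mice (5.505% of the 109, background 4.17%), and 4 were higher and 2 lower in stressed cKO than in control mice (5.505%, background 7.67%). In stressed cKO mice 4 were higher and 6 lower than in unstressed cKO mice (9.17%, background 6.34%), and 4 higher and 5 lower than in the other 6 mice (8.26%, background 8.09%). All cKO mice differed from control mice in 2 higher and 2 lower (3.67%, background 5.25%). Cul3, the scaffold that KLHL adaptors bind, had 289.5, 235.1 and 229 normalized counts in control mice, 182.6, 205.8 and 198.7 in unstressed cKO mice and 233.7, 263.3 and 219.2 in stressed cKO mice. The unstressed cKO mice were lowest, with a log2 difference from control mice of -0.35 (SE 0.29, limma adjusted p = 0.9995). Hdac5, a class II histone deacetylase gene listed among the regulators of Trim63, was the 1 pathway gene that DESeq2 called, against control mice and against the other 6 mice. It had 1097, 655.8 and 711.8 normalized counts in control mice, 1373, 878.5 and 1145 in unstressed cKO mice and 3617, 1675 and 2471 in stressed cKO mice. The last group lay above all other mice, with a log2 difference from control mice of 1.62 (SE 0.28, limma adjusted p = 0.0955, DESeq2 adjusted p = 0.000863). That of Trim63 was -0.01 in the same comparison, and a relation between the levels of both genes was not tested.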

How the data were processed

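Nuclear RNA was amplified with the Ovation RNA-seq V2 kit and sequenced as single-end 50-base reads. Per the labels and the study's methods, the authors used STAR for alignment to mm10 and DESeq2 for normalization. Their versions, the counter, the strand setting and the annotation are not stated there. The deposited file holds a signal, gene counts divided by a size factor of each library, from which 100% of values came back as whole reads (tolerance 0.001). The level minimum of 10 had to be met by 3 libraries. The main test was limma 3.58.1 with trend on log2(value + 1), with Benjamini-Hochberg adjustment over 13454 genes at 0.05, two-sided. edgeR 4.0.16 (TMM) and DESeq2 1.42.0 (deposited size factors) on the recovered reads in R 4.3.3 were alternatives. The code of all 3 tests was run beforehand on simulated counts with known changes, which says nothing of the calls in these data. Single genes were tested by exact permutation. Gene positions and exon lengths come from GENCODE (67 of 68 members found by identifier), promoters from RefSeq.

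The members, gene lists and tests were chosen with earlier results of these data known. Named members were the muscle genes, the 10 highest per kb in control mice, and those past the thresholds, 26 in all. The mice were not stated to come from separate litters, so p-values measure the spread between these samples.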

Additional observations from a re-analysis of the deposited data

Results flagged for a closer look

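Of 52 sets of 6 mice examined for a single extreme value among the named members, 2 held one, and chance gives about 1 in 20. Klhl40 was at 90.5 normalized counts in U3, while the other control and unstressed cKO mice were at 17.94 to 38.99. The gap was 0.71 of the whole range, above Dixon's 95% critical value for 6 samples. Trim72 was at 1729 normalized counts in C2, while the others were at 388.7 to 761, a gap of 0.722 of the range, also above that value.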

How the results depend on the processing

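The count of members past the adjusted threshold was 0 under limma in all 5 comparisons, and it stayed 0 with other pseudocounts, other minimums, edgeR, series as a covariate, only the groups compared and each library left out. DESeq2 gave 2 for unstressed cKO against control mice and 1 for all cKO against control mice. Leaving out 1 library under DESeq2, an alternative chosen after seeing the data, gave 0 to 2 in the first, 0 to 2 in the second and 0 to 1 for stressed cKO mice against the other 6 mice (1 without U1), with 0 in the remaining comparisons. Members at an unadjusted p under 0.05 ranged over the alternatives from 5 to 8 for unstressed cKO against control mice, from 2 to 12 for stressed cKO mice against control mice, from 1 to 9 against unstressed cKO mice, from 1 to 10 against the other 6 mice and from 5 to 10 for all cKO mice. Of the 130 log2 differences of the 26 named members in the 5 comparisons, 56 turned sign under at least 1 alternative, and none of the 28 at an unadjusted p under 0.05. Among those of Trim13 and Klhl12 only the differences from the other 6 mice did, Klhl12 to 0.289 without S3 (range -0.571 to 0.289 without 1 library), and Trim13 to 0.03 without C1 and 0.064 without C3 (range -0.537 to 0.064). The cause was not tested. No paired analysis was possible because the labels give each sample its own number and no replicate number shared between groups. Members with few reads are limited by depth.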
